A study of Mus musculus with 8 samples.

Results

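The 7 enzymes described here turn glycine and succinyl-CoA into heme: Alas1, Alad, Uros, Urod, Cpox, Ppox and Fech, in pathway order. They were chosen by name and not by any measured value, though with earlier results of these data known. They come from 22180 genes that have an array row naming 1 gene. Each of the 7 had 1 such row. Levels are log2 values after robust multi-array averaging (RMA), which corrects, scales and summarises the probes of an array into 1 value per row. Where 4 values of a group stand in a row, they are those of replicates 1 to 4 in that order. Single arrays are also written as WT 1 to WT 4 and KO 1 to KO 4, where KO means labelled as knockout.

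RNA of whole liver was measured in 8 mice on Affymetrix Mouse Gene 2.0 ST arrays, 4 arrays from wild-type mice and 4 from mice labelled as IL-10 knockout. Every mouse is labelled as female, C57BL/6 and 6 weeks old, and every mouse drank 3% dextran sulfate sodium (DSS), a chemical that damages the gut epithelium and gives colitis, for 7 days. No mouse without DSS is compared here, and the sources do not describe the Il10 mutation. The question is what loss of IL-10, a cytokine that dampens inflammation, changes in the liver during colitis.

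The labels did not match the arrays in 1 respect. Replicates 1 and 2 of both groups read the Y-linked genes Uty, Eif2s3y and Kdm5d at 8.03 or above and Xist, which silences an X chromosome in females, at 6.32 or below, while replicates 3 and 4 read Xist at 11.68 or above and the Y-linked genes at 4.61 or below. These are called the Y set and the Xist set. Each holds 2 arrays per group, and each enzyme is also given within them. Il10 itself read 4.90 to 5.08 in wild-type arrays and 5.69 to 6.41 in the others (log2 difference 1.00; limma adjusted p = 0.00851). Where the mutation lies relative to these probes is not given, so the row checks nothing and directions rest on the labels. Array medians lay between 6.09 and 6.22, and liver was borne out by albumin (Alb), transthyretin (Ttr) and 14 other hepatocyte genes, whose summed level was 16.28 to 16.31 in the wild-type and 16.26 to 16.29 in knockout-labelled arrays.

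Heme is an iron-bearing ring that cytochrome P450 enzymes, catalase and hemoglobin need. Its synthesis begins in the mitochondrion with ALAS1, the rate-limiting step in liver, runs through the cytosol with enzymes that include ALAD, UROS and UROD, and ends in the mitochondrion with CPOX, PPOX and FECH, which inserts iron. In liver, heme represses ALAS1, while fasting and drugs that induce P450 enzymes raise it. Red cell precursors use a separate enzyme, ALAS2, for the initial step.

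None of the 7 genes passed the test, while the entry enzyme and the next enzyme stood apart between the groups in opposite directions. The test was limma on 4 against 4 arrays with Benjamini-Hochberg adjustment over all 22180 genes, at an adjusted p below 0.05, which 3.15% of all genes passed (1.56% higher and 1.59% lower in knockout-labelled arrays). At an unadjusted p below 0.05 there were 4 of the 7 (Alad, Alas1, Urod and Fech), against 21.2% of all genes. An unmoderated linear model passed 4 of the 7 unadjusted (4141 of all genes), and adjusted it passed 0 of all 22180 genes, so its 0 of 7 carries no information. The groups did not overlap for 3 of 7, against 12.9% of all genes. These were Alas1, on the higher side (7.2% of all genes), and Alad and Urod, on the lower side (5.74%). The difference was below 0 for 6 of the 7, against 44.0% of all genes, and the median over the 7 was -0.23, against 0.03 over all genes.

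**Figure D1:**
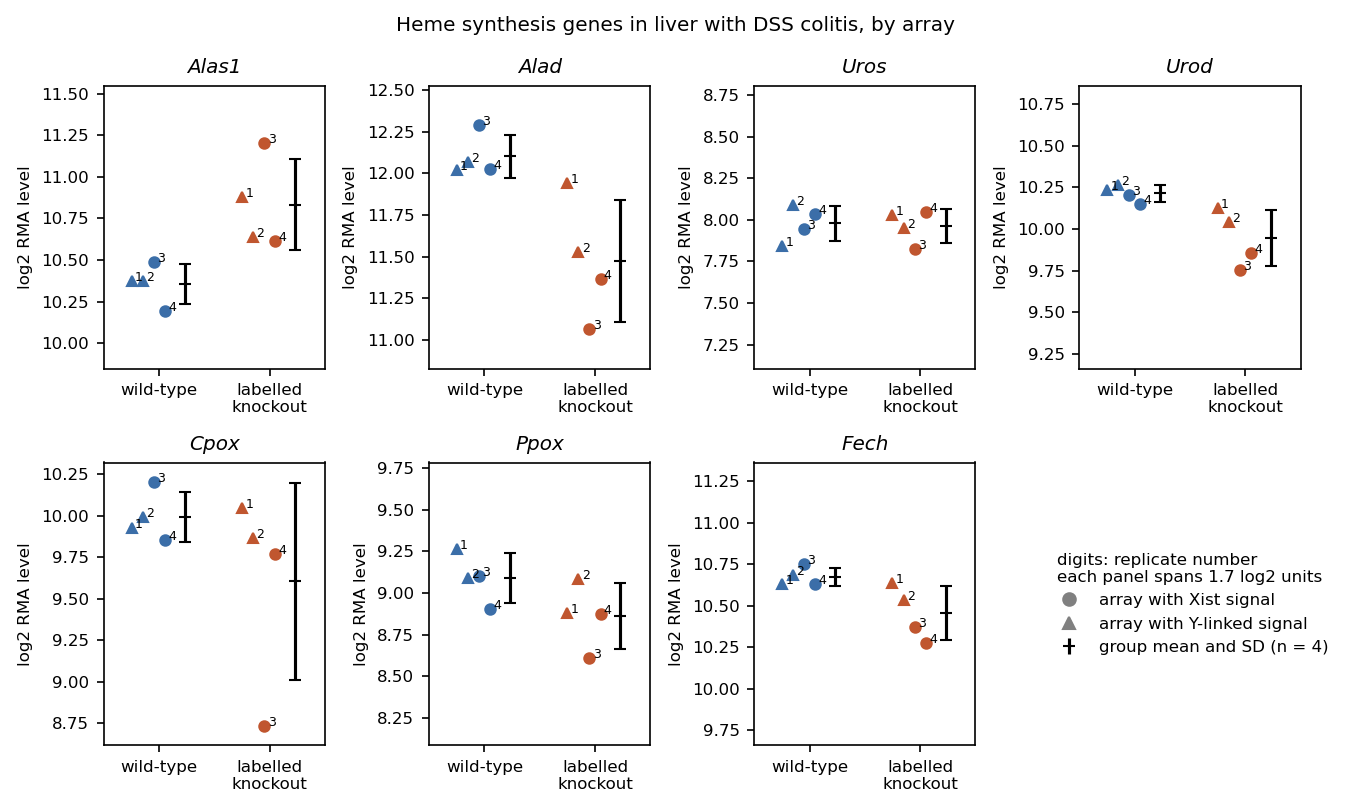
Log2 RMA level of each heme synthesis gene (y axis, every panel spanning the same range) in 4 wild-type and 4 knockout-labelled arrays, with the replicate number beside each point, circles for arrays with Xist signal, triangles for arrays with Y-linked signal, and bars for the group mean and SD. For Alas1 all 4 knockout-labelled points lie above the wild-type ones, and for Alad and Urod all 4 lie below.

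Alas1, the gene of 5-aminolevulinate synthase 1, read 10.37, 10.37, 10.49 and 10.19 in the wild-type mice. The knockout-labelled mice read 10.88, 10.64, 11.20 and 10.61. Every knockout-labelled array was above every wild-type array, and replicate 3 was the highest. Group means ± SD (n = 4 each) were 10.36 ± 0.12 and 10.83 ± 0.27, which differ by 0.48 on the log2 scale (SE 0.13; 95% interval 0.19 to 0.77; 1.39-fold). This missed the threshold (limma adjusted p = 0.0765), and the exact two-sided permutation p of 0.0286 is the smallest that the 70 arrangements of the arrays allow. The difference was 0.39 within the Y set and 0.57 within the Xist set.

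Alad, the gene of 5-aminolevulinate dehydratase, a zinc enzyme that joins the product of ALAS1 into porphobilinogen, read 12.02, 12.07, 12.29 and 12.03 in the wild-type mice. The knockout-labelled mice read 11.94, 11.53, 11.06 and 11.37. All 4 were below the wild-type arrays, replicate 1 by little. Means ± SD (n = 4 each) of 12.10 ± 0.13 and 11.47 ± 0.37 differ by -0.63 on the log2 scale (SE 0.16; 95% interval -0.99 to -0.27; 1.54-fold lower; limma adjusted p = 0.0674). Without knockout-labelled replicate 1 Alad passed (-0.78; limma adjusted p = 0.0123). It also passed within the Xist set (-0.95; limma adjusted p = 0.0494), against -0.31 within the Y set, and the difference between these sets did not pass (-0.64; limma interaction adjusted p = 0.863, where 0.0271% of all genes passed).

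The log2 ratio of Alas1 to Alad within an array joins these opposite differences. It was -1.65, -1.70, -1.80 and -1.84 in the wild-type and -1.07, -0.89, 0.14 and -0.75 in the knockout-labelled mice. The groups did not overlap, and replicate 3 of the knockout-labelled group stood farthest from wild-type. Rows of different genes have different probes, so only the change of the ratio can be read, which was 1.105 log2 units. The pair was picked after the values were seen, so no test is given.

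Because Alas1 and Alad lay farthest from wild-type in each direction, the 250 bases before the outermost RefSeq start of each are shown (GRCm38.p6, 5′ to 3′ on the gene's strand), in lower case with any searched motif in capitals. The Alas1 stretch is chr9:106247955-106248204 and the Alad stretch chr4:62520064-62520313, both on the minus strand. The capitals in Alad mark CACGTG, the E-box that clock factors and related proteins bind, and the Alas1 stretch holds no searched motif.
Alas1: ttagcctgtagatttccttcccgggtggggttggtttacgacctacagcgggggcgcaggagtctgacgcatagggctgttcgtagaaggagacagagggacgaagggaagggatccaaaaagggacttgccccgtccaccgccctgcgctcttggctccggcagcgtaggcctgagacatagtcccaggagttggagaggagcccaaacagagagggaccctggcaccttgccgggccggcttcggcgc
Alad: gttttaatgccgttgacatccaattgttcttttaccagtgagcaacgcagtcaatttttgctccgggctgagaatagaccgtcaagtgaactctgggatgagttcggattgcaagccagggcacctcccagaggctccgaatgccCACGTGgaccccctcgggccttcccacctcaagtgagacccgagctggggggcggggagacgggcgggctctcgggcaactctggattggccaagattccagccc

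Short sites with 8 flanking bases show what the windows of 6 members hold, from 250 bases before to 50 after each start (9 windows). Fech was left out of this search. Capitals mark the motif. The NRF1 motif (GCGC, any base, then TGCGC), named for a factor of nuclear genes for mitochondrial proteins, occurred at chr9:106247945-106247954 and chr9:106247916-106247925 in Alas1, from bases 1 and 30 after the outermost start, and at chr7:133709333-133709342 in Uros. CACGTG occurred in Alad (also at chr4:62519932-62519937), at the outer edge of a Uros window and in Urod (chr4:116994457-116994462). AGATAA, the motif of GATA factors that act in red cell precursors, occurred on the reverse strand at chr16:58670212-58670217 in Cpox.
Alas1, first site: ttcggcgcGCGCGTGCGCgcggcagg
Alas1, next site: cacccaagGCGCATGCGCggcggtca
Uros: gtcacactGCGCCTGCGCgagtcccg
Alad, inner start: cccgccccCACGTGggcttgcg
Urod: ggatcggtCACGTGgttctcaa
Cpox: gtgcagtcTTATCTgctctttc

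Both strands were searched in 32851 windows of the same length. The NRF1 motif was in 4.603% of them, CACGTG in 7.15% and AGATAA in 11.2%, against 3, 4 and 1 of the 9 member windows. These windows overlap for Alas1 and for Alad and belong to 2, 3 and 1 of the 6 members. TGACGTCA, AGGTCA and TGACNNNGC were in none of the 9 windows, against 1.79%, 16.3% and 12.4% of all. These are matches of letters and were not read as binding.

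The remaining cytosolic genes were Uros, whose enzyme closes the porphyrin ring, and Urod, whose enzyme trims its side chains. Uros read 7.84, 8.09, 7.94 and 8.04 in the wild-type and 8.03, 7.95, 7.82 and 8.05 in the knockout-labelled mice. The groups overlapped, with a log2 difference of -0.01 (95% interval -0.20 to 0.17; limma adjusted p = 0.935). Urod read 10.23, 10.27, 10.21 and 10.15 in the wild-type and 10.13, 10.04, 9.76 and 9.85 in the knockout-labelled mice. The groups lay apart by a small gap between wild-type replicate 4 and knockout-labelled replicate 1. Urod differed by -0.27 (SE 0.09; 95% interval -0.47 to -0.07; 1.21-fold lower; limma adjusted p = 0.128), by -0.16 in the Y set and -0.37 in the Xist set.

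The mitochondrial end of the pathway read lower on average, with no gene past the threshold and overlap between the groups for each gene. Cpox, whose enzyme oxidises coproporphyrinogen, read 9.92, 9.99, 10.20 and 9.85 in the wild-type and 10.05, 9.87, 8.74 and 9.77 in the knockout-labelled mice. Its difference of -0.39 (95% interval -0.93 to 0.15; limma adjusted p = 0.384) rested on knockout-labelled replicate 3, without which it was -0.10. It was 0.0017 in the Y set and -0.78 in the Xist set.

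Ppox, whose enzyme forms protoporphyrin, read 9.26, 9.09, 9.10 and 8.90 in the wild-type and 8.88, 9.09, 8.61 and 8.87 in the knockout-labelled mice (difference -0.23; 95% interval -0.48 to 0.02; limma adjusted p = 0.271). All knockout-labelled values but that of replicate 2 were below every wild-type one. Fech, the gene of ferrochelatase, read 10.63, 10.68, 10.75 and 10.63 in the wild-type and 10.64, 10.53, 10.37 and 10.28 in the knockout-labelled mice. Only knockout-labelled replicate 1 overlapped the wild-type range (difference -0.22; 95% interval -0.41 to -0.02; limma adjusted p = 0.192). Ppox differed by -0.20 and -0.26, and Fech by -0.07 and -0.37, in the Y and Xist sets.

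**Figure D2:**
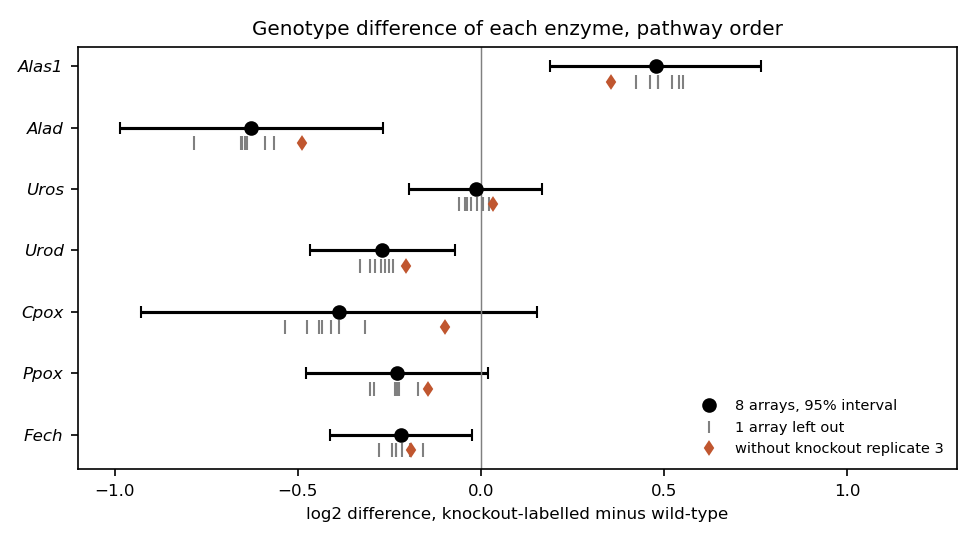
Log2 difference of each enzyme gene (x axis, knockout-labelled minus wild-type; y axis, genes in pathway order) with its 95% interval from limma over 8 arrays, grey ticks for fits leaving out 1 array and a diamond for the fit without knockout-labelled replicate 3. Alas1 stays above 0 and Alad, Urod, Cpox, Ppox and Fech below 0 in all 8 of these fits, while Uros crosses 0.

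Knockout-labelled replicate 3 held the lowest of all 8 values for Alad, Uros, Urod, Cpox and Ppox and the highest for Alas1. Without it the log2 differences were 0.35 for Alas1, -0.49 for Alad, 0.03 for Uros, -0.21 for Urod, -0.10 for Cpox, -0.14 for Ppox and -0.19 for Fech (limma adjusted p between 0.0987 and 0.872 over the 7 genes). Across the 8 arrays Alad, Urod and Fech ran closely together (Pearson r 0.947 for Alad with Urod, 0.918 for Alad with Fech and 0.917 for Urod with Fech, a description over points that share the group difference and this array), while Alas1 ran against Alad (r -0.719). The same array had the lowest mean correlation with the others over all rows, 0.980 against 0.984 to 0.988. In it the median deviation of 11 pericentral hepatocyte markers from their wild-type means was -0.51, against -0.25 to 0.54 in the other arrays, and that of 10 periportal markers was 0.38, against -0.08 to 0.12. Not every marker followed the median of its list. In this array pericentral Glul read 10.73 against a wild-type mean of 10.51, and periportal Cdh1 read 8.96 against 9.76. The part of these marker deviations in the values of the 7 genes was not tested.

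**Figure D3:**
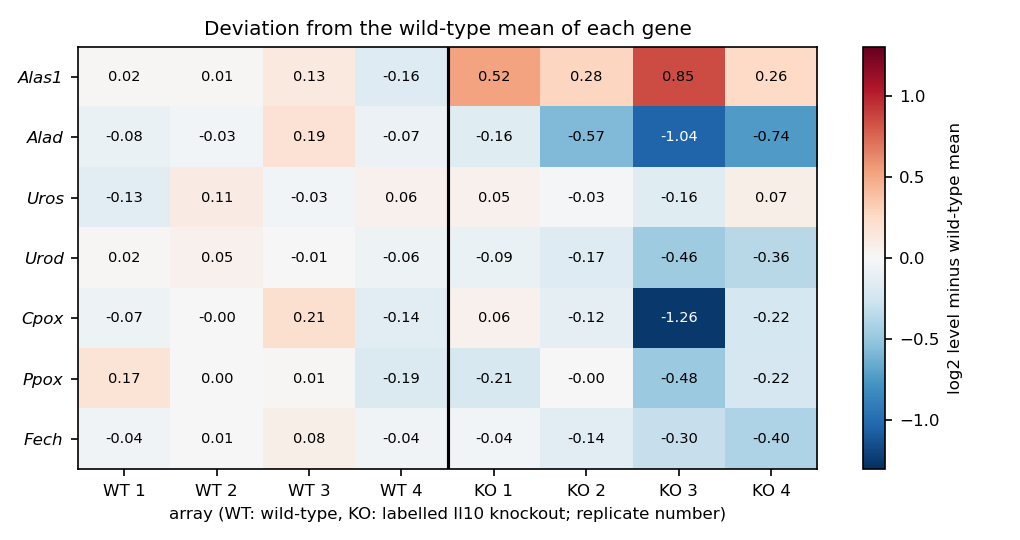
Log2 level of each heme synthesis gene (rows) in each array (columns) minus the wild-type mean of that gene, coloured from blue (lower) to red (higher). Knockout-labelled replicate 3 holds the most extreme values, with 0.85 for Alas1, -1.04 for Alad and -1.26 for Cpox.

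With the Xist and Y sets as a block, 4.68% of all genes passed and still none of the 7. Alad came closest (limma adjusted p = 0.0511), followed by Urod (0.0760) and Alas1 (0.0767). No interaction of genotype with these sets passed for any of the 7 (limma adjusted p between 0.863 and 0.981).

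The 5 genes whose values over the 8 arrays followed Alad most closely, the member with the largest difference, were Vps29, Mospd3, Car5b, Impa1 and Itgb5 (Pearson r 0.997 to 0.987 over 8 arrays). In all, 627 genes had r above 0.9 with Alad, and the points share the group difference and knockout-labelled replicate 3. Car5b (-0.94) and Impa1 (-0.65) were among the genes called lower (limma adjusted p = 0.0496 and 0.0407). Leaving out any array but KO 1 ended the call of Car5b, and any but KO 1 or KO 3 that of Impa1 (limma adjusted p up to 0.135 and 0.121).

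The row that names Alas2, the red cell enzyme, also names its neighbour Apex2 and cannot be assigned to either. It read 9.65, 9.84, 8.44 and 8.54 in the wild-type and 9.04, 8.66, 7.86 and 8.18 in the knockout-labelled mice. Within each group the Y set was above the Xist set. The difference was -0.68 (SE 0.37; limma adjusted p = 0.368 over all 41345 rows), -0.90 and -0.47 within the Y and Xist sets. With the sets as a block the row came closer to the threshold but did not pass (limma adjusted p = 0.0561 over all rows).

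Genes that feed and carry the pathway's substrates held few calls. Of 14 measured genes for glycine and succinyl-CoA supply, Suclg1, a subunit of the enzyme that splits succinyl-CoA, fell by 0.46 and Psph, which makes serine, the source of glycine, by 0.53 (limma adjusted p = 0.0265 and 0.0292), and 12 did not pass (list median -0.04). With the sets as a block Shmt2, a mitochondrial source of glycine, also passed (-0.53; limma adjusted p = 0.0402). Leaving out WT 1, WT 2, KO 2 or KO 4 ended the call of Suclg1 (limma adjusted p up to 0.0758), and leaving out any of these or WT 3 or WT 4 ended that of Psph (up to 0.0924). None of 13 genes for mitochondrial porphyrin and iron transport passed (list median -0.19; 4 above and 9 below 0). Closest were mitoferrin-1 (Slc25a37, -0.43) and Fam210b (0.22), with limma adjusted p = 0.0822 and 0.105. None of 11 iron-sulfur cluster genes passed (median -0.06), a group that builds the kind of cluster FECH carries, with Nfu1 at -0.26 and Fdx1 at -0.36. Of 5 proteases that process or degrade ALAS1 in mitochondria none passed (median -0.17), with Lonp1 at -0.25 and Pmpcb at -0.29.

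Of 19 regulators of Alas1 transcription only Ppara, the fatty acid sensor of fasting, passed, falling by 0.81 (limma adjusted p = 0.0401). Leaving out any array other than KO 1 ended that call (up to 0.117). Ppara differed by -0.40 in the Y set and -1.22 in the Xist set. The difference between the sets did not pass (limma interaction adjusted p = 0.549). Ppargc1a, the fasting coactivator of Alas1, differed by 0.14 and Nr1i3, the drug sensor CAR, by -0.27 (limma adjusted p = 0.702 and 0.402). The median over the 19 was -0.10, with 8 above and 11 below 0. Egr1, named after its values were seen, had the largest difference of this list (-1.35) and did not pass (limma adjusted p = 0.0905).

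Enzymes that use heme were lower in part. Of 40 hepatocyte heme enzymes, 4 fell, 0 rose and 36 did not pass, with a median of -0.23 and 29 below 0. The 4 were the P450 genes Cyp3a11, which fell by 1.25, Cyp4f14 by 1.05, Cyp2c29 by 0.73 and Cyp2f2 by 0.60 (limma adjusted p = 0.00605, 0.0321, 0.0136 and 0.0294). Cyp2f2 and Cyp4f14 each lost the call in 5 of the 8 fits without 1 array (up to 0.0946 and 0.0997). WT 1, WT 2, WT 3 and KO 2 were such arrays for both genes, joined by KO 4 for Cyp2f2 and by WT 4 for Cyp4f14. With the Xist and Y sets as a block 6 fell, Cyp1a2 (-1.004), a drug-oxidising P450, and Ido2 (-0.66), a tryptophan-degrading enzyme, being added (limma adjusted p = 0.0188 and 0.0286). Cyp2d9, named after its values were seen, was the 1 gene of this list that passed the interaction test of genotype and set (1.33 in the Xist set and -0.29 in the Y set; limma interaction adjusted p = 0.0259). The abundant alcohol-oxidising Cyp2e1 differed by 0.07, and Cyp7a1, which starts bile acid synthesis, by -1.94 with a wide spread (SE 0.98; limma adjusted p = 0.286). Cyp7a1 differed by -3.45 in the Xist set and -0.43 in the Y set, which did not pass as an interaction (limma interaction adjusted p = 0.601). Of 6 heme-binding and partner genes Hebp2 fell by 0.83 (limma adjusted p = 0.0198) and 5 did not pass; leaving out WT 1, WT 2, WT 3 or KO 4 ended that call (up to 0.0632).

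The opposite branch, heme breakdown and transport, held called rises. Hmox1, which opens the heme ring, read 8.72, 8.61, 8.80 and 8.58 in the wild-type and 9.43, 9.13, 9.30 and 9.32 in the knockout-labelled mice. The groups were clearly apart (log2 difference 0.62, SE 0.08; limma adjusted p = 0.00815), by 0.61 and 0.62 within the Y and Xist sets. The log2 ratio of Alas1 to Hmox1 was 1.68 ± 0.06 in the wild-type and 1.54 ± 0.26 in knockout-labelled arrays (SD, n = 4 each). Of 13 genes on this list Hmox1 and the hemoglobin scavenger receptor Cd163 (1.01) rose and 11 did not pass (median 0.12). Cd163 is also counted among the macrophage and monocyte markers below, of which 20 of 20 lay above 0. Of 9 genes of iron sensing and storage the iron importer Slc39a14 (0.58) and hepcidin (Hamp, 2.23) rose and 7 did not pass, with both calls lost in fits without 1 array (5 of 8 and 7 of 8; limma adjusted p up to 0.0950 and 0.120). The arrays concerned were WT 1, WT 2, WT 3, KO 3 and KO 4 for Slc39a14 and all but WT 4 for Hamp. Hepcidin, the hormone that blocks iron export, differed by 3.26 in the Y set and 1.20 in the Xist set, and the difference between the sets did not pass (limma interaction adjusted p = 0.521).

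**Figure D4:**
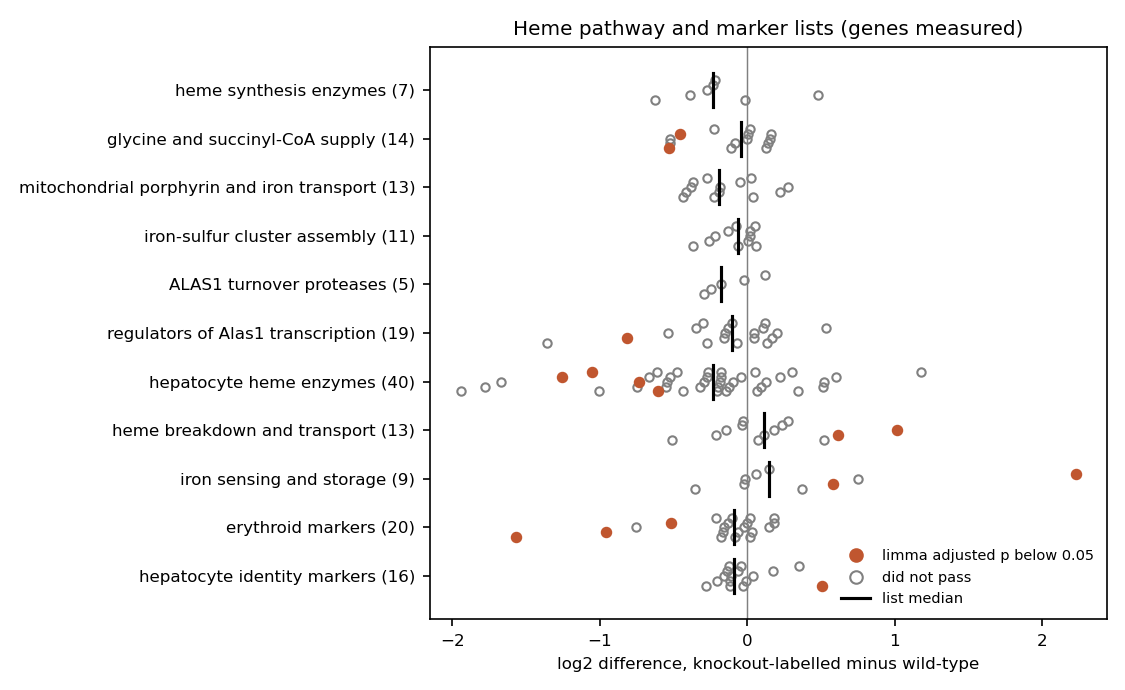
Log2 difference (x axis, knockout-labelled minus wild-type) of every measured gene in 11 lists (y axis, number measured in brackets), with filled points for genes past a limma adjusted p of 0.05 and black bars for list medians. The heme synthesis row has no filled point, the hepatocyte heme enzymes have 4 below 0 and heme breakdown has 2 above 0.

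Markers of immune cells and a few erythroid markers moved with genotype. In RNA of whole liver, fewer cells of a type and less RNA per cell cannot be told apart. Of 16 neutrophil markers 12 rose and 1 fell (summed log2 level 12.34 to 13.00 in the wild-type and 13.31 to 13.70 in knockout-labelled arrays). Lcn2, which hepatocytes also make in inflammation, held 68.7% to 75.7% of that sum, and without it the ranges were 10.66 to 10.98 and 11.29 to 11.96, an alternative chosen after seeing the data. Of 20 macrophage and monocyte markers 10 rose (13.52 to 13.79 and 14.06 to 14.34). Of 20 erythroid markers 3 fell, namely Car2 (-1.57), Car1 (-0.95) and Tspan33 (-0.52), and 17 did not pass. Their summed log2 level was 12.38 to 12.52 and 12.23 to 12.34, of which Tfr2, a gene hepatocytes express, held 58.6% to 69.1%, and without Tfr2 it was 10.93 to 11.24 and 10.64 to 10.69. Differences lay above 0 for 6 of the 20 erythroid markers and below 0 for 14 (median -0.09). Among them Gata1, Klf1, Hemgn and Epb42 had mean levels of 5.64, 6.28, 5.56 and 5.25 in wild-type and 5.67, 6.46, 5.71 and 5.10 in knockout-labelled arrays. Slc4a1 and Rhag, named after their values were seen, had 7.87 and 4.87 in wild-type and 7.12 and 4.69 in knockout-labelled arrays. Slc4a1 did not pass over all arrays (-0.75; limma adjusted p = 0.0860) but passed within the Y set (-1.31; limma adjusted p = 0.0139). Leaving out WT 2, WT 3 or KO 4 ended the calls of Car1 and Tspan33, and for Tspan33 so did WT 1 or KO 3 (limma adjusted p up to 0.0669 and 0.127). Of 16 hepatocyte markers, tyrosine aminotransferase (Tat, 0.51) rose and 15 did not pass. Leaving out WT 2, WT 3, WT 4 or KO 4 ended the call of Tat (limma adjusted p up to 0.0758). Of 11 pericentral markers none passed, while with the sets as a block Rgn did (-0.59; limma adjusted p = 0.0456), as it did within the Xist set (-0.90; limma adjusted p = 0.0222), and of 10 periportal markers Cdh1 fell by 0.81. Of 12 lymphocyte markers Il2rb and Ccl5 rose, and leaving out WT 1, WT 2, WT 4, KO 2 or KO 4 ended both calls (limma adjusted p up to 0.104 and 0.109). Of 16 stellate, endothelial and bile duct markers Lyve1 rose (1.05) and Lrat, Lum and Pkhd1 fell. Lyve1 kept its call in all 8 fits without 1 array, Pkhd1 lost it without WT 1 or KO 4, and Lrat and Lum without any array but KO 1 (limma adjusted p up to 0.0793, 0.124 and 0.135). With the sets as a block Prox1 of the hepatocyte markers, Marco of the macrophage markers, Cd28 of the lymphocyte markers and Sox9 of the bile duct markers also rose (limma adjusted p between 0.0396 and 0.0482). The part of these shifts in the values of the heme synthesis genes was not tested.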

How the data were processed

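Liver RNA of 8 mice was measured on 1 array each. The deposited values are log2 levels that the authors obtained by RMA; the submitters' processing notes name R 3.0.1. Genome build: not given in the sources used here. There is no detection call. The table has 41345 rows, of which 23521 name 1 gene in the platform annotation, 1814 several, and 16010 are not listed there; 23328 of the rows naming 1 gene, those of the 7 enzymes included, match their gene number and symbol in RefSeq (GRCm38.p6). A gene with several rows was represented by its brightest one on average.

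Genes were compared with limma 3.58.1 (lmFit, eBayes) in R 4.3.3, unpaired, as knockout-labelled minus wild-type, and adjusted over 22180 genes. Groups came from the sample titles. Nothing ties a title to a litter or batch, so p-values reflect only sample-to-sample spread, which may be technical, and the number of arrays limits precision. No 2 arrays were duplicates (smallest root-mean-square distance 0.26). Promoter sequences are from RefSeq.

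The members, lists and named-gene rule (the 7 enzymes and Alas2; called members of each list, up to 4, otherwise the 2 with smallest p; Hmox1, Xist, Il10, Nr1i3, Ppargc1a, Cyp2e1 and Cyp7a1; the 5 genes most like Alad) were chosen with earlier results of these data known. Summed marker levels are log2 of the sum of unlogged values. The fit was tested on simulated data of 4 against 4 arrays, in which genes varied independently. Of 200 genes changed 1.5-fold it recovered 63%, and of 200 changed 2-fold 94%, with 7 and 8 false calls. Alternatives covered normalization, row choice, moderation, weights, blocks, signal sets and leaving out each array. Figures used matplotlib 3.10.9.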

Additional observations from a re-analysis of the deposited data

Results flagged for a closer look

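In groups of 4 arrays, a value was singled out when its gap to the nearest other array, as a share of the group's range, passed Dixon's 95% limit, which chance gives in about 1 of 20 groups. None of the 7 heme synthesis genes met this, Cpox in knockout-labelled replicate 3 included. Of 56 named genes with a row of their own, 2 did. Cxcr2, a neutrophil receptor, read 7.46 in wild-type replicate 3 against 7.05 to 7.10 in the other wild-type arrays. Lrat, which stores vitamin A in stellate cells, read 8.82 in knockout-labelled replicate 1 against 7.90 to 8.05 in the others of that group.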

How the results depend on the processing

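Alas1 kept its sign and did not pass in any of 22 linear-model alternatives (adjusted p 0.0516 to 0.284), and Urod, Ppox and Fech kept theirs without passing. Alad kept its sign in all 22 and passed in 2, at -0.95 in the Xist set and -0.78 without knockout-labelled replicate 1; fits without 1 array gave -0.78 to -0.49. By the exact permutation test, unadjusted, Alas1 (0.48), Alad (-0.63) and Urod (-0.27) had p = 0.0286. Cpox was 0.0017 in the Y set. Uros changed sign with quantile normalization (0.0085), array weights (0.010) and in the Y set (0.025), and lay between -0.059 and 0.032 in fits without 1 array. Of the 7 enzymes 1 passed in the Xist set, 0 to 1 in fits without 1 array, and 2 at an adjusted p below 0.1. Of all genes 699 were called, against 332 with every row tested, 317 and 171 in the Xist and Y sets, 1685 at an adjusted p below 0.1, 207 to 1040 in fits without 1 array, and 0 with the unmoderated model (4141 at an unadjusted p below 0.05). A common median gave 209 higher and 330 lower in place of 347 and 352. Fewer arrays or more rows tested make up several of these settings; for the others the cause was not tested. The labels do not say that replicate numbers pair the arrays. Same-numbered deviations correlated at 0.27, 0.04, -0.10 and 0.29, which cannot settle it, because in both groups replicates 1 and 2 form the Y set and 3 and 4 the Xist set. A replicate block therefore also takes up these sets. With it 497 genes were called and none of the 7 (limma adjusted p = 0.0516 for Alas1 and 0.108 for Alad).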
